A study of Homo sapiens with 4 samples.

Results

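Collagen chain genes encode the polypeptides that assemble by threes into collagens, the main structural proteins of the extracellular matrix. The set comprised every gene of the array annotation whose symbol reads COL, a number, A and a number, without antisense or pseudogene symbols, which gave 43 of the 18132 genes measured. The genes were grouped by textbook collagen class, and each was read from 1 probe set, the brightest on average over the 4 arrays of those that name it alone. RNA came from Hs578T, a human breast cancer cell line with mesenchymal features, grown in every group in serum-containing medium with added insulin. The cells of the 2 ELK3 knockdown arrays carry stable lentiviral shRNA against ELK3, an ETS family transcription factor, and the 2 sh control arrays are labelled ELK3 sh control. Titles number the knockdown samples 1 and 5 and the controls 1 and 2, and the labels do not tell whether a number is a construct, a clone or a culture, so that p-values measure the spread between these arrays, which may be technical. By its title, the series asks how ELK3 and the chemokine CXCL16 bear on killing by natural killer cells.

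Each collagen chain holds stretches in which glycine recurs at a fixed spacing, and chains of one type wind around each other inside the cell before they are secreted. Fibrillar collagens are cut outside the cell and pack into fibrils, which lysyl oxidases crosslink. Network collagens form sheets such as the basement membrane, and the fibril-associated, beaded filament, anchoring and transmembrane collagens link these structures to each other and to cells. Tumour stroma is known for its fibrillar collagen, and cells of mesenchymal character are known to make it themselves.

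Most of the fibrillar, beaded filament and anchoring collagen genes of these cells were far lower in the knockdown arrays. On the probe sets read, COL9A3 was the large exception in the other direction. COL4A6 was not called on the probe set read but rose on 5 of its 7 probe sets. At a limma adjusted p under 0.05, 19 of the 43 collagen genes fell and 2 rose, against 21.3% of all genes lower and 29.5% of all genes higher. The falls exceeded 2 on the log2 scale for 16 collagen genes, or 37.2%, against 3.19% of all genes. Both knockdown arrays lay below both control arrays for 26 collagen genes, or 60.5%, against 36.8% of all genes. The median change of the 43 was -0.24 and that of all genes -0.01, since 22 collagen genes were not called and lay near 0. On the linear scale the signals of the 43 genes summed to 10668.4 and 10091.4 in knockdown replicates 1 and 5, against 106122.4 and 105367.7 in control replicates 1 and 2, which is 10.2-fold lower.

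**Figure D1:**
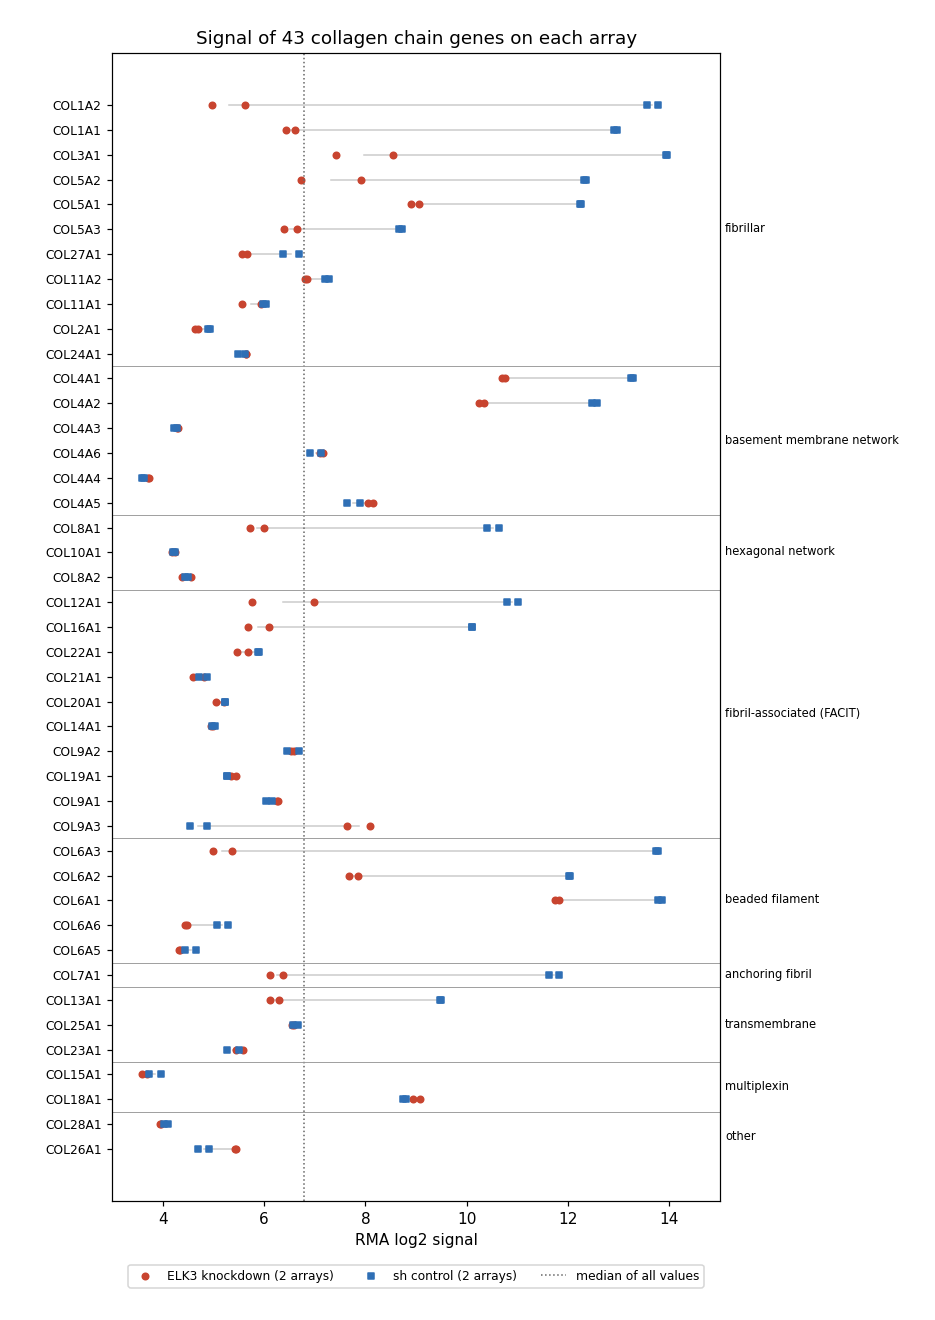
RMA log2 signal (x axis) of the 43 collagen genes (rows, by class) on each array; red circles are the 2 ELK3 knockdown arrays, blue squares the 2 sh control arrays, grey lines join the group means and the dotted line is the median of all values, 6.78. For 16 genes the mean of the circles lies more than 2 units left of that of the squares, and for COL9A3 they lie to the right.

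Dim genes weigh on these counts. The deposited values carry no call of signal above background, so the median of all values on the arrays, 6.78, served as a mark of dimness. Means lay under it in both groups for 22 collagen genes, of which 19 were not called and 3 were. Group means lay above it in the knockdown arrays alone for 1 collagen gene (COL9A3) and in the control arrays alone for 9. How much of a dim signal is background was not tested, so folds toward the dim range hold for the array signal.

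As background for every value, the arrays formed pairs that correlated across probe sets at 0.996 (knockdown) and 0.998 (control), against 0.902 to 0.904 between groups, and 50.8% of all genes were called in either direction. ELK3 itself had 8.09 and 7.92 in knockdown replicates 1 and 5, against 10.05 and 10.07 in the control arrays, a fall of 2.06 on the log2 scale (SE 0.09, limma adjusted p = 2.57e-06). Of 10 mesenchymal markers all fell, and their linear signals summed to between 11908.1 and 12877.2 in the knockdown arrays and between 60501.4 and 61179.1 in the control arrays. SNAI2, THY1, PDGFRB and AXL, which mesenchymal cells make, were under the median of all values in the knockdown arrays. Of 8 epithelial markers KRT8, KRT18 and KRT19 rose, and the list summed to between 14316.8 and 17898.4 in the knockdown arrays and between 2049.1 and 2110.4 in the control arrays, while CDH1, EPCAM, ESRP1 and GRHL2 were under that median in both groups. Neural markers summed to between 4145.5 and 4239.9 in the knockdown arrays and between 4343.3 and 4557.6 in the control arrays. Of these 8 markers 2 were higher, NEFL (log2 change 2.86) and INSM1 (1.13), and 1 was lower, TUBB3 (-3.13). Of 5 markers each, chondrocyte markers fell in 1 (summed range 523.6 to 617.2 in the knockdown arrays and 814.4 to 829.6 in the control arrays), endothelial markers in 2 (281.7 to 283.2 in the knockdown arrays and 365.8 to 369.2 in the control arrays) and haematopoietic markers in 1 (175.7 to 177.1 in the knockdown arrays and 220.7 to 233.9 in the control arrays), and none rose. Most of these were dim, with control means above the median of all values for 1 chondrocyte, 1 endothelial and 0 haematopoietic markers. Beside all these marker counts stand 21.3% of all genes lower and 29.5% higher. Without control replicate 1 the chondrocyte marker HAPLN1 was also called lower (-0.32) and the endothelial marker KDR was no longer called (-0.45), and without knockdown replicate 5 ESRP1 was called higher (1.11). The part of these shifts in the collagen values was not tested, and in bulk RNA fewer cells of a type and less RNA per cell cannot be told apart. Nor can the knockdown be told apart here from any other difference between the cell populations of the groups, such as their clones.

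The promoter windows of 3 loci are shown because they mark the behaviours described here: the divergent pair COL4A1 and COL4A2, which fell together, COL6A3, with the largest fall on the probe sets read (COL1A2 fell more on averaging probe sets), and COL4A6, several of whose probe sets rose. Each window runs from 250 bases before to 50 after the gene's start, is on the minus strand and comes from RefSeq on build GRCh38.p14. Capitals mark GGAA, the core that ETS factors bind, and its reverse complement TTCC. The windows lie at chr13:110307108-110307407, chr2:237414115-237414414 and chrX:108439409-108439708.
COL4A1: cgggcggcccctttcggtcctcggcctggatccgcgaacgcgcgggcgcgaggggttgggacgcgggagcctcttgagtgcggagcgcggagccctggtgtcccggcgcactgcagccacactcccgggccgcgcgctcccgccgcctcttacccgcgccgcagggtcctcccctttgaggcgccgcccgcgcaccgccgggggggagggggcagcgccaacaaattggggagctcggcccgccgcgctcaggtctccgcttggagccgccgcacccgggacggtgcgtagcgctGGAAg
COL6A3: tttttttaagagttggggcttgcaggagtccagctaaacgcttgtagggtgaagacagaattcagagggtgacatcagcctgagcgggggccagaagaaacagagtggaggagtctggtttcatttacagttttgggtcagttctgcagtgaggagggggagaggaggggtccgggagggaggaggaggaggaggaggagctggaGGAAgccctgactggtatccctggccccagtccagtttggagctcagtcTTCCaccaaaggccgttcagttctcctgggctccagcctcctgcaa
COL4A6: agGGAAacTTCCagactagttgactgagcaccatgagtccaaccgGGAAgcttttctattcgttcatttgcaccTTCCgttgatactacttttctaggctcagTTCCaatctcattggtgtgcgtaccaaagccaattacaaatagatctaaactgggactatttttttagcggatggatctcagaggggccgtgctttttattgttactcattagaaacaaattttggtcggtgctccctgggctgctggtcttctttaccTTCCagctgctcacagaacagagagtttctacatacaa

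The COL4A1 window also holds the start of COL4A2, which lies 127 bases away on the other strand, and it is rich in G and C (76.7%). It holds 1 GGAA and 0 TTCC, the COL6A3 window holds 1 GGAA and 1 TTCC, and the COL4A6 window holds 2 GGAA and 4 TTCC. That core is found on either strand in 95.5% of all 35116 windows of this length, so its presence sets no window apart. Windows were at hand for 31 of the 43 genes, the others being COL1A1, COL1A2, COL2A1, COL3A1, COL5A2, COL6A1, COL6A5, COL8A1, COL9A3, COL14A1, COL20A1 and COL22A1. The longer letters CCGGAA, often found in high-affinity ETS sites, occurred on either strand in 17.2% of all windows and in 0 of the 43 windows of these 31 collagen genes. The CArG box, which serum response factor, the partner of ELK3 on DNA, binds, occurred in 1.29% of all windows and in 0 of those of the collagen genes. GGGCGG, bound by SP1, occurred in 24 of the 43 collagen windows, against 45.0% of all windows, and TATAAA in 7 of the 43, against 11.5%. Some collagen genes have several windows. Counted by gene, GGGCGG occurred for 11 of the 13 that fell and 10 of the 17 that were not called, and TATAAA for 4 of those 13 and 2 of those 17. The share by gene over all genes was not counted, and a gene with several windows has more chances to hold a motif. Of the 19 genes that fell only 13 have a window, and the difference between these groups was not tested.

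Fibrillar collagen genes fell in 8 of 11 cases and rose in 0, against 21.3% and 29.5% of all genes, with a median change of -2.17. The genes of type I collagen, the main collagen of skin, bone and tendon, fell most within the class on the probe sets read. COL1A2, the alpha-2 chain, had signals of 4.98 and 5.62 in knockdown replicates 1 and 5, against 13.77 and 13.56 in control replicates 1 and 2, and was 330-fold lower (-8.37 on the log2 scale, SE 0.20, limma adjusted p = 2.36e-07). COL1A1, the alpha-1 chain, had 6.43 and 6.62 in the knockdown arrays and 12.98 and 12.92 in the control arrays (log2 change -6.42, SE 0.09, adjusted p = 1.14e-07). Both genes were under 6.78 in both knockdown arrays and far above it in both control arrays. Averaged over all probe sets, the changes were -7.54 for COL1A2 and -5.51 for COL1A1, against -6.48 for COL3A1. COL3A1 also had a larger fall than COL1A1 without cross-hybridising probe sets (-6.74 against -6.42) and without knockdown replicate 1 (-6.53 against -6.33).

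COL3A1, the gene of type III collagen, which co-assembles with type I, had 8.54 and 7.42 in knockdown replicates 1 and 5, against 13.95 and 13.94 in the control arrays. It was 62.7-fold lower (-5.97 on the log2 scale, SE 0.31, limma adjusted p = 5.69e-06), and -6.74 without the probe sets that mark cross-hybridisation. Type V collagen starts fibrils and sets their diameter, and the genes of its 3 chains all fell. COL5A2 had 7.91 and 6.72 in knockdown replicates 1 and 5, against 12.31 and 12.37 in the control arrays (log2 change -5.02, SE 0.33). COL5A1 had 9.05 and 8.89 in the knockdown arrays and 12.24 and 12.27 in the control arrays (-3.28, SE 0.08), and stayed above 6.78 in every array. COL5A3, a chain of more restricted distribution, had 6.39 and 6.65 in the knockdown arrays and 8.66 and 8.71 in the control arrays (-2.17, SE 0.12). The adjusted p-values of these 3 were 1.73e-05, 2.30e-07 and 7.77e-06. The change of COL5A2 was -3.29 on averaging its probe sets and -6.07 without those that mark cross-hybridisation.

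The minor and cartilage-type fibrillar chains moved little, and all but COL11A2 had means under 6.78 in both groups. COL27A1, which is made in cartilage, had 5.66 and 5.57 in the knockdown arrays and 6.37 and 6.68 in the control arrays, and fell by 0.91 (SE 0.14, limma adjusted p = 0.00103). COL11A2, a chain of type XI collagen of cartilage, fell by 0.41 (SE 0.10, adjusted p = 0.0141), a call lost on averaging its probe sets (-0.24), without control replicate 1 (-0.37) and without control replicate 2 (-0.45). COL11A1 (-0.27), COL2A1 (-0.24), the gene of the main cartilage collagen, and COL24A1 (0.09) were not called. COL11A1 had 5.56 and 5.93 in knockdown replicates 1 and 5, against 5.98 and 6.04 in the control arrays, and was called at -0.45 without knockdown replicate 5.

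**Figure D2:**
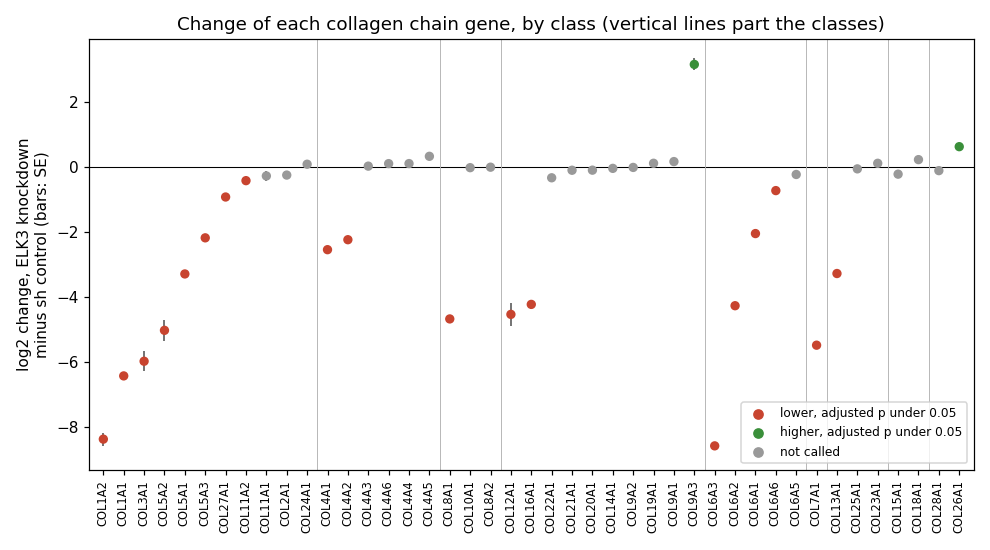
Log2 change of each collagen gene, ELK3 knockdown minus sh control (y axis), with limma standard errors as bars; genes are ordered by change within class, and vertical lines part the classes in the order fibrillar, basement membrane, hexagonal network, fibril-associated, beaded filament, anchoring, transmembrane, multiplexin and other. The falls span -8.58 (COL6A3) to -0.41 (COL11A2), and the rises are COL9A3 (3.17) and COL26A1 (0.63).

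Beaded filament collagen genes fell in 4 of 5 cases, against 21.3% of all genes. Type VI collagen joins 1 chain each of COL6A1, COL6A2 and COL6A3 into filaments near basement membranes, and the 3 genes fell by unequal amounts. COL6A3, the largest of the chains, had 4.98 and 5.37 in knockdown replicates 1 and 5, against 13.73 and 13.77 in the control arrays, and was 381-fold lower (-8.58 on the log2 scale, SE 0.13, limma adjusted p = 1.14e-07). COL6A2 had 7.68 and 7.85 in the knockdown arrays and 12.01 and 12.04 in the control arrays (-4.26, SE 0.08, adjusted p = 1.68e-07). COL6A1 had 11.81 and 11.74 in the knockdown arrays and 13.86 and 13.77 in the control arrays (-2.04, SE 0.05, adjusted p = 3.31e-07). COL6A1 thus stayed well above the median of all values in the knockdown arrays, while COL6A3 was under it.

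The spread of the probe sets bears on that order. All 3 probe sets of COL6A3 fell, with changes of -9.66 to -3.60, and all 6 of COL6A1, with changes of -3.21 to -2.04, so that their ranges did not overlap. The 4 probe sets of COL6A2 ranged from -4.26 to -0.10 and 2 of them were not called. The differences between chains were not tested. Averaging all probe sets put COL6A3 at -7.28, COL6A1 at -2.76 and COL6A2 at -1.80, and without probe sets that mark cross-hybridisation COL6A1 was at -3.21 and COL6A2 at -2.53. COL6A5 and COL6A6 encode chains that can take the place of the COL6A3 chain. COL6A6 had 4.48 and 4.44 in the knockdown arrays and 5.28 and 5.07 in the control arrays and fell by 0.72 (SE 0.11, adjusted p = 0.000996), and COL6A5 was at -0.22 and not called. Both stayed under 6.78 in every array.

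Of the 6 basement membrane collagen genes, 2 fell and 0 rose by the probe sets read, against 21.3% and 29.5% of all genes. COL4A1 and COL4A2 encode the chains of the network found in nearly all basement membranes. COL4A1 had 10.75 and 10.69 in the knockdown arrays and 13.24 and 13.28 in the control arrays (log2 change -2.54, SE 0.05, limma adjusted p = 2.17e-07). COL4A2 had 10.24 and 10.35 in the knockdown arrays and 12.47 and 12.58 in the control arrays (-2.23, SE 0.07, adjusted p = 5.57e-07). All 3 probe sets of each gene fell, with changes of -3.22 to -1.01 for COL4A1 and of -2.50 to -2.23 for COL4A2, and COL4A1 was at -3.22 without probe sets that mark cross-hybridisation. The pair starts at the divergent window shown above and stayed above the median of all values in every array.

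The other basement membrane chains did not follow that pair. COL4A3 (0.04) and COL4A4 (0.11), chains of the kidney glomerular membrane, were dim in both groups and not called. COL4A5 had 8.05 and 8.15 in the knockdown arrays and 7.89 and 7.63 in the control arrays, and its change of 0.34 (SE 0.12) had an adjusted p = 0.0517. It was called higher without knockdown replicate 1 (0.39), without control replicate 1 (0.47), with robust moderation and with dim genes left out. COL4A6, its divergent neighbour with a start 380 bases away, had 7.10 and 7.17 in the knockdown arrays and 7.13 and 6.91 in the control arrays on the probe set read, where the groups overlapped (0.11, SE 0.12, adjusted p = 0.482).

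For COL4A6 the choice of probe set decides the call. All 7 probe sets had positive changes, and 5 of them rose, by 0.76 to 2.48. The probe set with the largest change, drawn on the RefSeq transcript, had 6.86 and 6.94 in the knockdown arrays and 4.53 and 4.30 in the control arrays (log2 change 2.48). On averaging its probe sets, COL4A6 rose by 0.99. Of COL4A5, 1 of 3 probe sets rose when p-values were adjusted over probe sets. It is the probe set read above, with the same change and a limma adjusted p = 0.0486 in place of 0.0517. The others were at 0.18 and 0.02 and were not called.

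The hexagonal network class has 3 genes and 1 of them fell, against 21.3% of all genes. COL8A1, a chain of the type VIII collagen of vessel walls and of the cornea, had 5.71 and 5.99 in the knockdown arrays and 10.39 and 10.64 in the control arrays (log2 change -4.67, SE 0.14, limma adjusted p = 4.99e-07). Its other 2 probe sets were dim and fell with changes of -0.45 and -0.44, which put the average at -1.85. COL8A2, the partner chain (0.0032), and COL10A1, a product of hypertrophic chondrocytes (-0.01), were dim and not called.

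Of 10 fibril-associated collagen genes 2 were lower, 1 was higher and 7 were not called, against 21.3% of all genes lower and 29.5% higher. COL12A1, which binds the surface of type I fibrils, had 6.99 and 5.77 in knockdown replicates 1 and 5, against 10.80 and 11.00 in the control arrays (log2 change -4.53, SE 0.34, limma adjusted p = 3.52e-05). It was at -2.49 on averaging its probe sets, of which 3 of 4 fell. COL16A1, made by fibroblasts and smooth muscle cells, had 6.10 and 5.68 in the knockdown arrays and 10.11 and 10.10 in the control arrays (-4.22, SE 0.15, adjusted p = 9.80e-07) and has 1 probe set. The group means of both genes were above 6.78 in the control arrays alone.

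COL9A3 was the collagen gene with the largest rise. It encodes a chain of type IX collagen, which in cartilage decorates type II fibrils. It had 8.09 and 7.65 in the knockdown arrays, against 4.53 and 4.87 in the control arrays, or 8.98-fold higher (log2 change 3.17, SE 0.18, limma adjusted p = 9.68e-06). The partner chains of type IX were not called, and the difference between chains was not tested. COL9A1 had 6.28 and 6.26 in the knockdown arrays and 6.04 and 6.16 in the control arrays (0.18, SE 0.11), and COL9A2 was at -0.0042 (SE 0.12) with overlapping groups. COL2A1, the fibrillar partner of type IX, was dim in both groups. COL9A3 has 1 probe set, so that no other reading of it was at hand.

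The other fibril-associated genes stayed within 0.33 of 0. They are COL22A1 (-0.32), COL21A1 (-0.09), COL20A1 (-0.09), COL14A1 (-0.03) and COL19A1 (0.12). COL22A1, made at tissue junctions such as that of muscle and tendon, was called lower without knockdown replicate 5 (-0.43), with no intensity trend and under both other scalings. COL14A1, another binder of fibrils, had 4.99 and 4.95 in the knockdown arrays and 5.04 and 4.97 in the control arrays, but 1 of its 4 probe sets rose by 0.68. That probe set was dim too, with 4.7 and 4.8 in the knockdown arrays and 4.0 and 4.1 in the control arrays. COL19A1 had 5.34 and 5.44 in the knockdown arrays and 5.26 and 5.27 in the control arrays.

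The remaining classes hold few genes. COL7A1, the only anchoring fibril gene, whose product ties the epidermis to the dermis, had 6.11 and 6.38 in the knockdown arrays and 11.62 and 11.82 in the control arrays, and was 44.5-fold lower (-5.48 on the log2 scale, SE 0.12, limma adjusted p = 2.17e-07). Among 3 transmembrane collagens COL13A1, which acts at the neuromuscular synapse, had 6.12 and 6.30 in the knockdown arrays and 9.47 and 9.50 in the control arrays (-3.27, SE 0.11, adjusted p = 7.87e-07). All 4 of its probe sets fell, and their mean was -2.60. COL23A1 (0.12) was not called.

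COL25A1, a transmembrane collagen of neurons, had 6.59 and 6.55 in the knockdown arrays and 6.66 and 6.58 in the control arrays on the probe set read, with a change of -0.05 that was not called. Another of its 4 probe sets rose by 0.84, and that probe set stands for the gene when those that mark cross-hybridisation are left out. It was under 6.78 on every array, with 5.2 and 5.0 in the knockdown arrays and 4.2 and 4.3 in the control arrays. The remaining probe sets were at 0.04 and not called. Averaged over all 4, COL25A1 rose by 0.22. The direction of COL25A1 therefore rests on the probe set.

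COL18A1, the multiplexin that releases the fragment endostatin, had 9.08 and 8.93 in the knockdown arrays and 8.74 and 8.80 in the control arrays (0.24, SE 0.09, adjusted p = 0.0695). It is bright in both groups, and it was called higher without knockdown replicate 5 (0.31), on averaging its 2 probe sets (0.26) and with dim genes left out. COL15A1, the other multiplexin, was dim (-0.21). COL26A1, a minor collagen, had 5.45 and 5.43 in the knockdown arrays and 4.70 and 4.92 in the control arrays and rose by 0.63 (SE 0.11, limma adjusted p = 0.00245), while staying under 6.78 in every array. COL28A1 was at -0.10 and not called.

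Further probe sets gave a partly separate reading of the same RNA. The 43 genes have 121 probe sets, of which 58 fell and 10 rose, against 22.5% of all probe sets lower and 27.4% higher when p-values were adjusted over all 44988. Of the 19 genes that fell, 5 have 1 probe set, and 10 of the other 14 fell on every probe set. The 4 with a probe set that was not called are COL1A1, COL6A2, COL11A2 and COL12A1. All 58 probe sets that fell belong to those 19 genes, which have 64 in all. No collagen gene had probe sets called in both directions. Signs differed among the probe sets of 6 genes (COL8A2, COL9A1, COL11A1, COL14A1, COL19A1 and COL25A1), none of which was called on the probe set read. COL8A2 had 4.38 and 4.56 in the knockdown arrays and 4.44 and 4.49 in the control arrays.

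**Figure D3:**
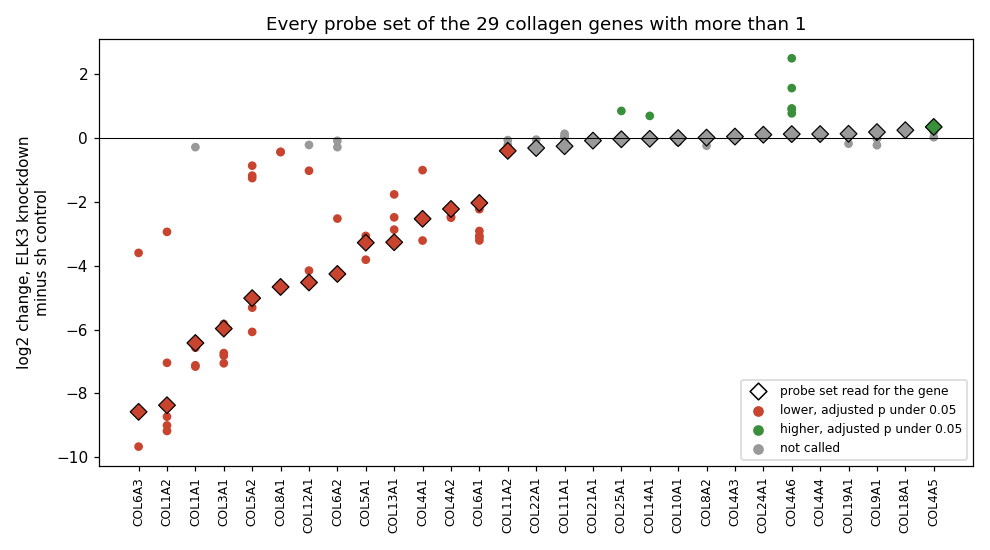
Log2 change, ELK3 knockdown minus sh control (y axis), of every probe set of the 29 collagen genes that have more than 1; diamonds are the probe sets read for the gene, and colours give the call with p-values adjusted over all probe sets. The sets of COL3A1 lie close together at -7.06 to -5.82, while those of COL1A1 run from -7.16 to -0.29 and COL4A6 has 5 green points above 0.

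The knockdown arrays differed from each other at 3 collagen genes. COL12A1, COL5A2 and COL3A1 were higher in knockdown replicate 1 than in replicate 5 by 1.22, 1.19 and 1.12, and a gap over 1 was found for 3 of 43 collagen genes (6.98%), against 0.298% of all genes. The control arrays differed by more than 1 at 0 collagen genes. For COL3A1 the gap was between 1.12 and 1.36 on all 5 probe sets. It was over 1 on the probe set read alone for COL5A2, whose other 5 gave -0.08 to 0.75, and for COL12A1, whose other 3 gave -0.05 to 0.37. For COL1A1 a probe set that was not read had a gap of 1.54, and the other 4 gave -0.22 to -0.04. COL3A1 and COL5A2 are adjacent protein-coding genes. The falls of COL3A1, COL5A2 and COL12A1 depend on which array is used. Without knockdown replicate 1 they were -6.53, -5.61 and -5.14. Without knockdown replicate 5 they were -5.41, -4.42 and -3.92.

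Adjacent collagen pairs included 3 that fell together, in a set where 19 of 43 genes fell, against 21.3% of all genes. Whether neighbours fell together more often than other pairs was not tested. COL4A1 and COL4A2 both fell, COL6A1 and COL6A2 both fell, and COL3A1 and COL5A2 both fell. COL6A6 fell and COL6A5 did not pass. COL4A3 and COL4A4, COL4A5 and COL4A6, and COL9A1 and COL19A1 were not called.

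Collagen receptor genes fell in 6 of 10 cases and rose in 2, with a median change of -1.38, against 21.3% and 29.5% of all genes. DDR2, a receptor kinase for fibrillar collagen, had 5.55 and 5.94 in the knockdown arrays and 10.09 and 10.26 in the control arrays (log2 change -4.43, SE 0.15, limma adjusted p = 8.63e-07). ITGA11, the integrin chain that binds type I collagen on fibroblasts, had 5.73 and 5.62 in the knockdown arrays and 8.93 and 8.72 in the control arrays (-3.15, SE 0.12). ITGA2, a collagen-binding integrin chain of epithelial cells and platelets, had 7.07 and 7.31 in the knockdown arrays and 10.03 and 9.96 in the control arrays (-2.80, SE 0.11). MRC2, which takes up collagen fragments, was at -2.77, ITGA10 at -2.01 and ITGB1, the shared beta chain, at -0.76. The members that rose, named after their values were seen, were DDR1, an epithelial collagen receptor kinase, with 10.61 and 10.94 in the knockdown arrays and 9.29 and 9.33 in the control arrays (1.47), and the platelet receptor GP6 (0.29). GP6 is dim and was not called on averaging its probe sets, without knockdown replicate 1 and without control replicate 1. On averaging probe sets, DDR2 was at -3.82, ITGA11 at -2.44, MRC2 at -2.13 and ITGA10 at -0.99, and with cross-hybridising ones left out ITGB1 was at -1.52 and DDR1 at 2.38.

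Genes for procollagen folding and processing fell in 28 of 35 cases and rose in 4, against 21.3% and 29.5% of all genes, with a median change of -1.38. LOX and LOXL3, lysyl oxidases that crosslink collagen, had the largest falls of the list. LOX had 5.58 and 5.14 in the knockdown arrays and 12.08 and 12.02 in the control arrays and was 103-fold lower (-6.69 on the log2 scale, SE 0.15, limma adjusted p = 2.17e-07). LOXL3 was at -5.84 (SE 0.11) and LOXL2 at -4.14 (SE 0.06). PCOLCE, which enhances the removal of the procollagen C-propeptide, had 6.43 and 6.85 in the knockdown arrays and 11.59 and 11.49 in the control arrays (-4.90, SE 0.14), but -1.77 on averaging its probe sets. Averaging put LOX at -5.52 and LOXL3 at -5.02. SERPINH1, the collagen chaperone HSP47, fell by 1.84 (SE 0.09) and remained bright, at 10.84 and 10.70 in the knockdown arrays against 12.72 and 12.49 in the control arrays. The 4 that rose were TMEM38B (1.66), an endoplasmic reticulum channel, PCOLCE2 (0.74), LOXL4 (0.63, or 1.59 on averaging its probe sets) and the procollagen protease ADAMTS3 (0.57, not called on averaging). SERPINH1 and these 4 were named after their values were seen.

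Of 10 collagen-degrading enzyme genes, 7 fell and 0 rose, against 21.3% and 29.5% of all genes, with a median change of -1.20. MMP2, a gelatinase, had 8.04 and 7.01 in knockdown replicates 1 and 5, against 11.99 and 12.02 in the control arrays (log2 change -4.48, SE 0.29, limma adjusted p = 1.59e-05). FAP, a fibroblast protease, was at -4.22 (SE 0.11), MMP14, a membrane collagenase, at -4.21 (SE 0.10) and MMP16 at -3.03 (SE 0.14). On averaging probe sets, MMP14 was at -3.50 and MMP16 at -2.26. MMP8, MMP9 and CTSK were not called.

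**Figure D4:**
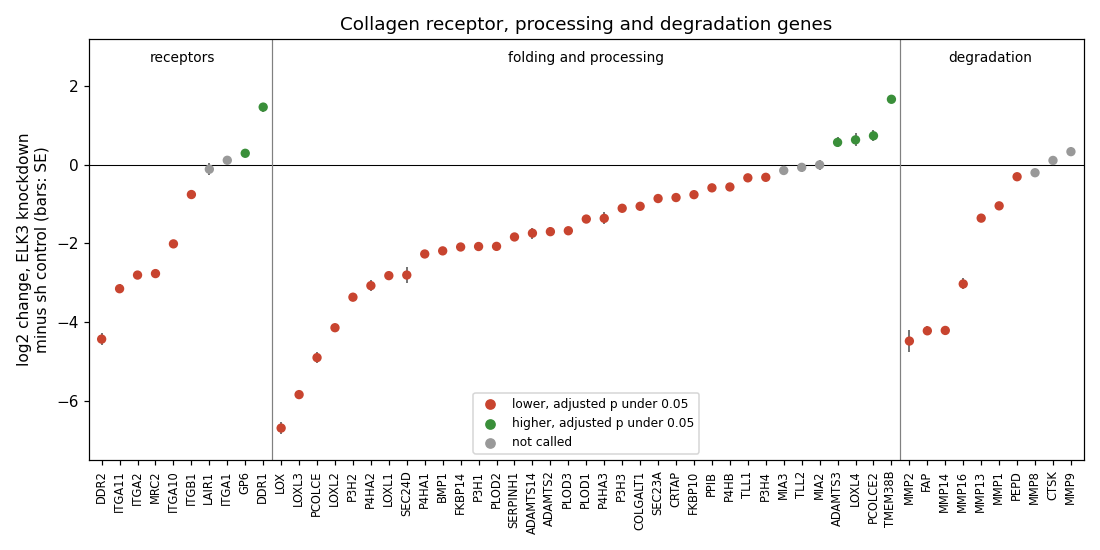
Log2 change, ELK3 knockdown minus sh control (y axis), of 10 receptor, 35 folding and processing and 10 degradation genes, ordered by change within each list, with limma standard errors as bars. LOX at -6.69 and TMEM38B at 1.66 are the ends of the range.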

How the data were processed

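Per the labels' protocols, total RNA was extracted with Trizol, amplified with a 3' labelling kit and hybridised to Affymetrix arrays. The deposited table gives log2 signals for 49293 probe sets on 4 arrays, which the authors normalized using RMA, as named in the submitters' processing notes. Its version was not given in the sources used here. Array medians lay between 6.76 and 6.80. Precision is limited by the number of arrays.

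Names came from the platform annotation (44988 with 1 symbol, 1832 with several, 2473 unnamed); all 43 collagen symbols are current in the RefSeq gene table. The group difference was fitted using limma 3.58.1 under R 4.3.3 (lmFit, eBayes with an intensity trend, 2 residual and 4.83 prior degrees of freedom), two-sided, with Benjamini-Hochberg adjustment over all 18132 genes. With 2 arrays against 2, an exact permutation test cannot go below p = 0.333. Folds are differences of log2 means turned to the linear scale. The fit was tested on simulated data, where it recovered 23.1% of 1.5-fold, 64.1% of 2-fold and 91.8% of 4-fold changes, with 2% false calls. These shares belong to the spread of the simulated data and need not hold for these arrays. Among the collagen genes here, the largest change that was not called was 0.34 on the log2 scale. A gene that was not called may thus still have changed by a small fold.

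Named by rule, mostly with values on all arrays, were members past the threshold with changes over 2 or that rose, the brightest member of each class, members whose probe sets disagree in sign, and up to 4 genes of each related list by size of change. Other genes of those lists were picked with their values in view. The members, lists and tests were chosen with earlier results of these data known. COL17A1 was not analysed here. The alternatives were no trend, robust moderation, other choices of probe set, a filter on dim genes, 2 other scalings, other thresholds and leaving out each array. Motifs were searched on both strands of RefSeq promoter windows with Python 3.11.15, and plots were made using matplotlib 3.10.9.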

Additional observations from a re-analysis of the deposited data

How the results depend on the processing

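No paired analysis was possible because the groups share only replicate number 1. The number of collagen genes that fell was 18 to 21 under the alternatives that kept all 4 arrays and the dim genes. With dim genes left out, 17 of the 20 collagen genes kept fell. That filter reads the mean over the 4 arrays, so a gene bright in the control arrays alone can pass it. Its count is therefore in part fixed in advance and is no separate support. The number of collagen genes that rose was 5 on averaging probe sets. The median collagen change was -3.75 with dim genes left out, by construction of that filter, and -0.30 to -0.21 with 1 array left out. The selection of the series' design text was run here as a fold over 1.5 with an unadjusted limma p under 0.05. Over all genes, that selection held 2284 lower and 3469 higher. Receptor genes that rose numbered 1 on averaging probe sets, with dim genes left out, at an adjusted p under 0.01 and by the design text's selection, and 1 to 2 with 1 array left out. For degrading enzymes, the number higher was 1 with no trend, on averaging probe sets and with quantile normalization, and 0 to 1 with 1 array left out; 4 were lower with dim genes left out. Processing genes that rose then numbered 2. COL25A1 reversed to 0.22 on averaging and to 0.84 on its probe set that remained once cross-hybridising ones were dropped, and COL14A1 to 0.68 on another of its probe sets. Beside the changed calls given with COL4A5, COL4A6, COL11A1, COL11A2, COL18A1 and COL22A1, others were those of COL15A1, called lower without control replicate 1 (-0.33), of COL6A5, called lower without control replicate 2 (-0.33), and of COL2A1, called lower on averaging probe sets (-0.24) and with each array minus its median (-0.26). The causes of these changes were not tested.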

Other observations

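Collagen-like domains also occur in proteins without a COL symbol, such as collectins and emilins. A list of 29 of them, chosen after the data were seen, had 27 measured genes, of which 6 fell, 3 rose and 18 were not called, with a median change of -0.07, against 21.3% of all genes lower and 29.5% higher. CTHRC1, a secreted protein of injured vessels, fell by 7.71 on the log2 scale (-4.84 on averaging its probe sets), and EMILIN1, an elastic fibre protein, by 3.65. COLEC12, a scavenger receptor with a collagen-like stalk, rose by 2.95, EMILIN2 by 1.11 and EDA by 0.50, the last not called without control replicate 1. The antisense gene COL18A1-AS1 was at -0.32 and not called, except without knockdown replicate 1 (-0.41).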
